A study of Rattus norvegicus with 5 samples.

Results

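Pdx1, Nkx6-1, Neurod1, Isl1, Pax6 and Hnf4a encode transcription factors of the pancreatic islet, and their RNA was followed in the rat insulinoma line INS-1 and in clones made from it. The genes were chosen by name, with earlier results of these data known. Every probe set that the annotation of the array assigns to one of these symbols was taken. This gave 7 of 15866 probe sets for 6 of the 10411 genes with a named probe set. Hnf4a had 2 probe sets and the other 5 genes had 1 each. INS-1 cells come from a tumour of insulin-producing beta cells and still make and release insulin.

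Total RNA of each line was hybridised to 1 single-colour expression array, 5 arrays in all. Set 5-3 held 2 clones, numbered 14 (replicate 1) and 19 (replicate 2) in the labels, set 1-1 held 2 clones, numbered 2 (replicate 1) and 16 (replicate 2), and the parental INS-1 line, which had 1 array, was their source. Every clone carries an FRT site, where Flp recombinase can insert a chosen gene, and the tetracycline repressor, which holds such a gene silent until tetracycline is given. No inserted gene and no tetracycline treatment is stated for these 5 samples, so the clones are described here as the engineered host cells. What separates the sets, and whether the clones of a set share an origin, is not given in the labels. Each array stands for 1 clone or line, so the p-values below measure the spread between these clones only.

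Signals are linear, in arbitrary units, and had been brought to a common level on every array: a mean trimmed by 2% at each end came to 1000.24 to 1000.28, and median signals were 342 to 372. Precision is limited by how few arrays there are. For beta-actin, probes near the 3′ end over those near the 5′ end, a ratio that grows as RNA breaks down, gave 1.61 to 1.62 in set 5-3, 1.49 to 1.73 in set 1-1 and 1.60 in the parental line, while the lys control RNA added during labelling was 3.53-fold brighter on the parental array than on the clones. The part of that control difference in the comparisons with the parental line was not tested. Among beta cell genes, Ins1, the gene of 1 of the rat insulins, was bright on every array. It read 37973 and 37189.5 in set 5-3, 42217 and 34381 in set 1-1 and 37359.9 in the parental line. Ins2 differed between arrays, at 3953 and 4303 in set 5-3, 30224 and 5381 in set 1-1 and 28816 in the parental line. The alpha cell hormone gene Gcg read 20549.5 and 24434 in set 5-3, 2064 and 17772 in set 1-1 and 6874.5 in the parental line. Among 12 fibroblast, endothelial and leukocyte markers 0 reached the brightness limit for testing, with summed signals of 840.3 to 939.3 in set 5-3, 1002 to 1010.4 in set 1-1 and 1061 in the parental line. Of 11 acinar and ductal markers, only the keratin gene Krt7 reached it. Krt7 read 808.1 and 1218 in set 5-3, 882.1 and 903.4 in set 1-1 and 1833.8 in the parental line. Summed over all 11 markers, signals were 1438 to 1903 in set 5-3, 1400.2 to 1725 in set 1-1 and 2441 in the parental line. Krt7 made up most of each sum.

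In the developing pancreas these factors act in sequence and then together. Pdx1, a homeodomain protein, is needed for the pancreas to form and in mature beta cells binds the insulin and islet amyloid genes. Nkx6-1, another homeodomain protein, holds cells to the beta cell fate. Neurod1 is a basic helix-loop-helix protein that pairs with ubiquitous E proteins and binds E-boxes, among them one in the insulin promoter. Isl1 joins a LIM domain to a homeodomain and works through the adaptor Ldb1, and Pax6 joins a paired domain to a homeodomain and is active in all islet endocrine cells, where it acts on the glucagon and insulin genes. Hnf4a is a nuclear receptor of liver, gut, kidney and islet. Inherited loss of function of PDX1, NEUROD1 or HNF4A causes forms of diabetes in people.

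All 6 genes have entries in the RefSeq promoter table of the rat build GRCr8. The windows below are the 250 bases before an annotated start. Both Hnf4a windows are shown because Hnf4a had the largest difference between the clone sets, and because it has 2 annotated starts, whose windows lie 35616 bases apart. In people the upstream promoter of HNF4A is the one chiefly used in islets. Capitals mark the E-box, CANNTG, the motif of the helix-loop-helix class to which Neurod1 belongs, whose pattern reads the same way on both strands. The upstream window of Hnf4a holds 1 and the downstream window 3. Which start the probe sets read is not told by the annotation used here.
Hnf4a upstream start (chr3:172605970-172606219, plus strand): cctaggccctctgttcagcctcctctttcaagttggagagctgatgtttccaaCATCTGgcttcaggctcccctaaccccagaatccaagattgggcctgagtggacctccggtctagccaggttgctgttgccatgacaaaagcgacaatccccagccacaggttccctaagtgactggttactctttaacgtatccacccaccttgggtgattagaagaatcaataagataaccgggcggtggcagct
Hnf4a downstream start (chr3:172641586-172641835, plus strand): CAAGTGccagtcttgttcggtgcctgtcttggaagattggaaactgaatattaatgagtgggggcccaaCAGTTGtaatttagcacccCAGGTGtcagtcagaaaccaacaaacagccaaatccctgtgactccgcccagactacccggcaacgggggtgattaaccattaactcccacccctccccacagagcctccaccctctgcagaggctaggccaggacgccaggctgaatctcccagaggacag

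The windows of Pdx1 and Neurod1 are shown for the same motif, with E-boxes again in capitals. An E-box is found in 65.5% of 33469 rat windows of this length and in 6 of the 7 member windows, so its presence is common. Pdx1 holds 3 and Neurod1 holds 1.
Pdx1 (chr12:12799157-12799406, minus strand): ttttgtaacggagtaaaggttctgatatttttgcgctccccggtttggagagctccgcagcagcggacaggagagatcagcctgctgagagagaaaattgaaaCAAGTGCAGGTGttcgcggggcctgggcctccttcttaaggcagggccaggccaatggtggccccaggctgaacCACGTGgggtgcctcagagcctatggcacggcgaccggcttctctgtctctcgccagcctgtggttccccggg
Neurod1 (chr3:84770455-84770704, minus strand): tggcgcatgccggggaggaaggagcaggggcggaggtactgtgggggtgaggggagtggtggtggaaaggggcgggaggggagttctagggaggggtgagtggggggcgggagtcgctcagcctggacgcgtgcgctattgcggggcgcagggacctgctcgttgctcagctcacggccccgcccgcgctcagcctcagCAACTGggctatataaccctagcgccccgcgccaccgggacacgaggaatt
The 4-letter homeodomain core TAAT, on either strand, is in 57% of all windows and in 4 of the 7 member windows.

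Hnf4a was the member that set the clone sets most clearly apart. Its first probe set read 404.4 and 362 in the 5-3 clones, 150.2 and 121.4 in the 1-1 clones and 433.1 in parental cells. Both 5-3 clones lay above both 1-1 clones, and the parental signal lay just above the 5-3 clones. The means were 383.2 ± 30.0 in set 5-3 and 135.8 ± 20.4 in set 1-1 (SD, n = 2 each). On the scale used for testing, log2 of the signal plus an offset of 21.8, the 5-3 clones exceeded the 1-1 clones by 1.37 ± 0.27 (SE), which is 2.58-fold with a 95% interval of 1.64 to 4.05. The unadjusted p was 0.00177. Adjusted over all 9520 probe sets tested, the difference did not pass the threshold of 0.05 (limma adjusted p = 0.107, and 0.0718 to 0.379 over 12 other settings). The 1-1 signals lay below 194, the mean signal a probe set needs to be tested, and no detection calls were used, so how much of the 1-1 signal is background is unknown.

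The second Hnf4a probe set was too dim to be tested. It read 244.1 and 134.1 in the 5-3 clones, 139.1 and 37.9 in the 1-1 clones and 186.2 in parental cells. Its lowest array was again 1-1 replicate 2, but the sets overlapped, since 1-1 replicate 1 read slightly above 5-3 replicate 2. When dim probe sets were kept in the fit, its difference between the sets was 1.05 ± 0.57 (log2, SE; limma adjusted p = 0.552), and that of the first probe set was 1.37 with an adjusted p of 0.213. Both probe sets thus had higher means in set 5-3, with only the first separating the clones.

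**Figure D1:**
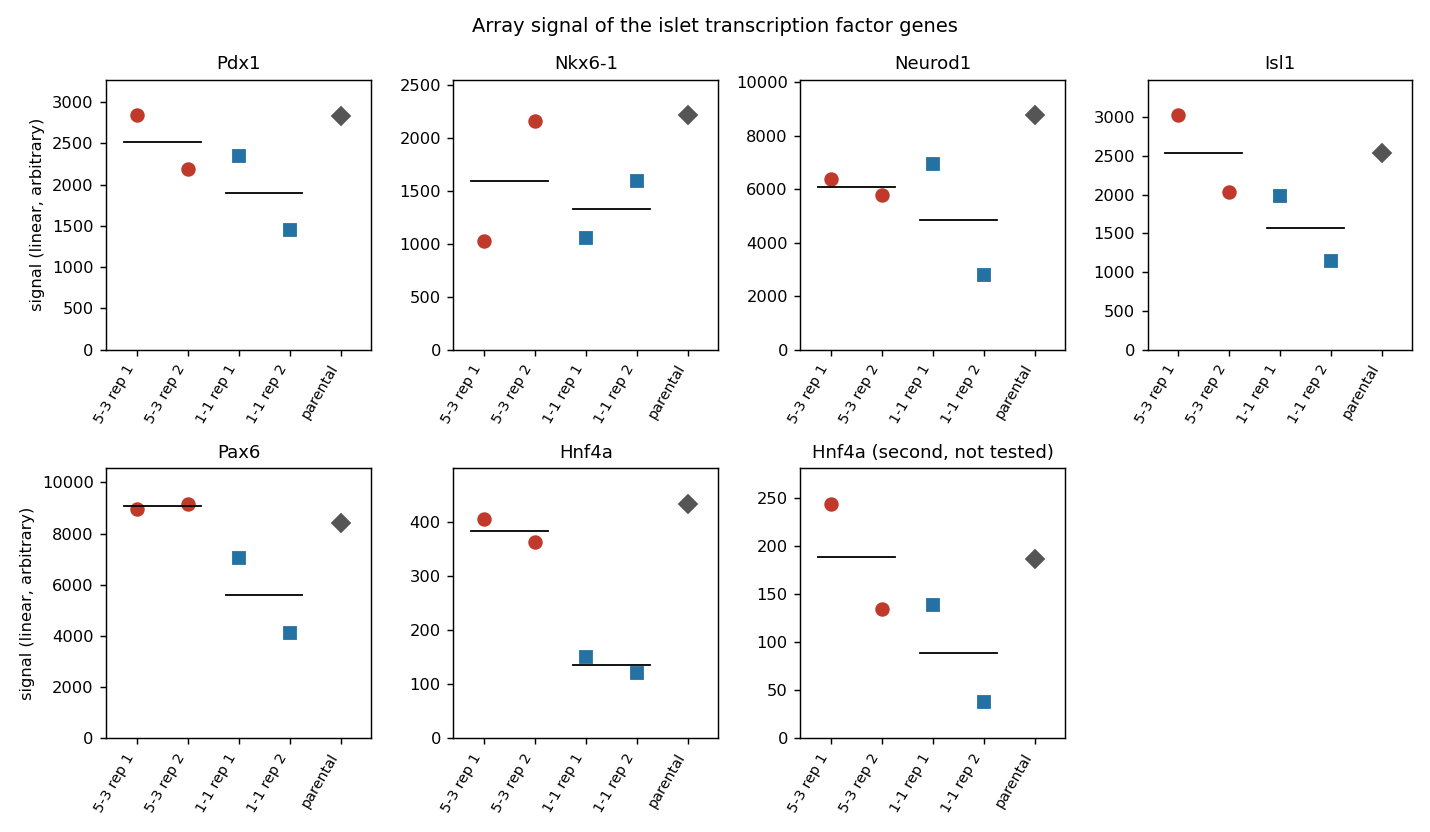
Linear signal of each probe set on the 5 arrays, one panel per probe set, with 5-3 clones as red circles, 1-1 clones as blue squares, the parental line as a grey diamond and black lines at the mean of each set. The 1-1 replicate 2 array is the lowest in every panel but that of Nkx6-1, and for Hnf4a's first probe set the 5-3 clones (404.4 and 362) sit well above the 1-1 clones (150.2 and 121.4).

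Pax6 also separated the sets. It read 8947 and 9168 in the 5-3 clones, 7043 and 4132 in the 1-1 clones and 8395 in parental cells. The 5-3 clones were close together and slightly above the parental signal, while both 1-1 clones lay below it. The difference between the sets was 0.74 ± 0.27 (log2, SE), or 1.68-fold with a 95% interval of 1.07 to 2.61, with an unadjusted p of 0.0287 and limma adjusted p = 0.264. It was 0.36 without 1-1 replicate 2, the lower of the 1-1 clones, and 1.13 without 1-1 replicate 1.

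Isl1 was also higher in both 5-3 clones than in both 1-1 clones, by a smaller gap. It read 3029 and 2036 in the 5-3 clones, 1987 and 1148 in the 1-1 clones and 2543.5 in parental cells. The sets did not overlap, but 5-3 replicate 2 and 1-1 replicate 1 were almost level, and the parental line lay between the 5-3 clones. The fitted difference between the sets was 0.71 ± 0.33 (log2, SE), or 1.63-fold with a 95% interval of 0.946 to 2.82 (limma adjusted p = 0.393). It was 0.32 without 1-1 replicate 2 and 1.10 without 1-1 replicate 1.

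Pdx1 overlapped between the sets. It read 2845 and 2185 in the 5-3 clones, 2343 and 1454 in the 1-1 clones and 2829.8 in parental cells. 5-3 replicate 1 was level with the parental line and 1-1 replicate 2 was the lowest array. The difference between the sets was 0.43 ± 0.29 (log2, SE), with a 95% interval of 0.832- to 2.18-fold (limma adjusted p = 0.566), so neither equal levels nor a difference of 2-fold falls outside it. Without 1-1 replicate 2 it was 0.09, and without 1-1 replicate 1 it was 0.77.

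For Neurod1 a single clone carried most of the spread. It read 6392 and 5773 in the 5-3 clones, 6927 and 2790.1 in the 1-1 clones and 8773 in parental cells. All 4 clones lay below the parental signal, and 1-1 replicate 2 lay far below the other 3. The difference between the sets, 0.46 ± 0.40 (log2, SE; limma adjusted p = 0.653), changed sign to −0.19 without 1-1 replicate 2 and was 1.12 without 1-1 replicate 1.

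Nkx6-1 followed another order. It read 1031 and 2158 in the 5-3 clones, 1053 and 1599 in the 1-1 clones and 2219.5 in parental cells. 5-3 replicate 2 was close to the parental line, while 5-3 replicate 1 and 1-1 replicate 1 were 2.15-fold and 2.11-fold below it. The sets overlapped, and their difference of 0.20 ± 0.39 (log2, SE; 95% interval 0.605- to 2.18-fold, limma adjusted p = 0.867) turned to −0.10 without 1-1 replicate 1 and to −0.33 without 5-3 replicate 2.

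Set against each other, the fitted differences were positive for 6 of the 6 tested genes, but 0 of 6 were called at the threshold. The signs for Neurod1 and Nkx6-1 were not stable, since each turned negative when a clone was left out. Of all 9520 probe sets, 0.42% were called between the sets by limma. At an unadjusted p under 0.05 stood 2 of the 6, Hnf4a and Pax6, against 14.8% of all probe sets. Both 5-3 clones lay above both 1-1 clones for 3 of the 6 (Hnf4a, Pax6 and Isl1), against 22.1% of all probe sets. The median difference of the 6 was 0.59 on the log2 scale, against −0.04 over all probe sets tested. The 6 genes were chosen with earlier results of these data known, so these shares and medians are given as a description. Leaving out 1-1 replicate 2 brought the median of the 6 to 0.34, and leaving out 1-1 replicate 1 brought it to 1.11.

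**Figure D2:**
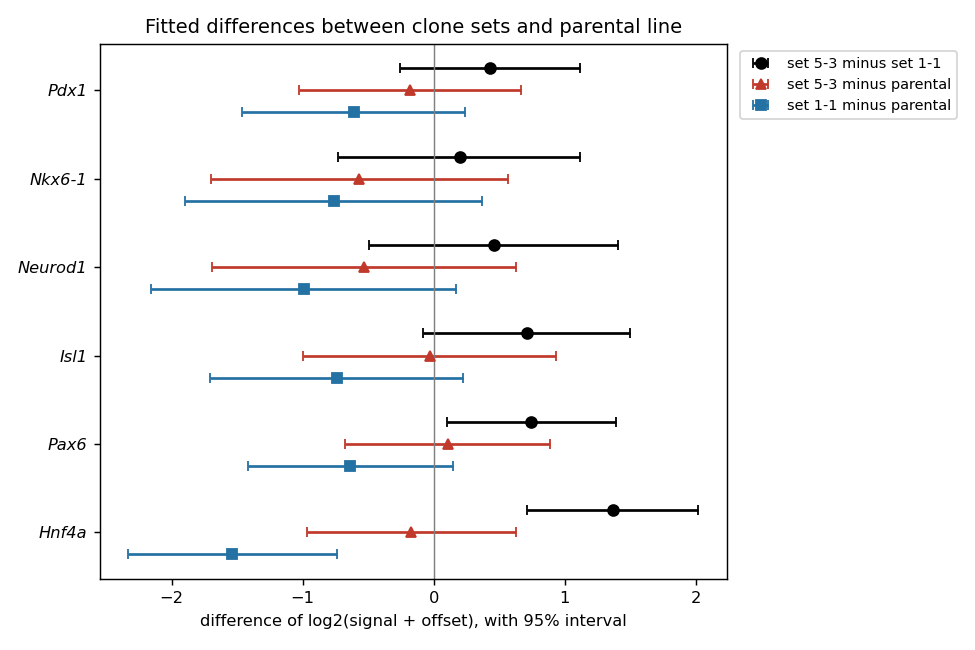
Fitted log2 differences with 95% intervals for the 6 tested genes: set 5-3 minus set 1-1 as black circles, set 5-3 minus parental as red triangles and set 1-1 minus parental as blue squares. The intervals of Hnf4a for set 5-3 minus set 1-1 (0.71 to 2.02) and set 1-1 minus parental (−2.33 to −0.74), and that of Pax6 between the sets (0.10 to 1.39), do not cover 0; they are not adjusted for the number of probe sets tested.

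The comparisons with the parental line share its single array, and that array is assumed to vary like the clones. In set 5-3 the differences of the 6 genes from the parental line ran from −0.57 ± 0.48 for Nkx6-1 to 0.11 ± 0.33 for Pax6 (log2, SE), and 0 of 6 were called, with 0 at an unadjusted p under 0.05. In this comparison limma called 0.0105% of all probe sets, and 7.8% had an unadjusted p under 0.05. In set 1-1 the 6 of 6 were lower than the parental line on average, from −0.61 ± 0.36 for Pdx1 to −1.54 ± 0.34 for Hnf4a. Much of this rested on 1-1 replicate 2: without it the differences were −0.27 for Pdx1, −0.34 for Neurod1, −0.35 for Isl1 and −0.25 for Pax6, while Hnf4a was at −1.40 and Nkx6-1 at −1.06. Without 1-1 replicate 1, Nkx6-1 was at −0.47. There too 0 of 6 were called, against 0.0105% of all probe sets, and only Hnf4a had an unadjusted p under 0.05 (0.00281, limma adjusted p = 0.344), against 8.47% of all probe sets. Both 1-1 clones lay below the parental array for 6 of 6 genes, where 35.5% of all probe sets did so. Their median difference from the parental line was −0.75 in set 1-1 and −0.18 in set 5-3, against 0.02 and −0.03 over all probe sets tested. As between the sets, these shares and medians are a description, since the genes were chosen with earlier results known.

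With the 4 clones taken as a single group, the 6 means were all lower than the parental signal, from −0.26 ± 0.43 for Pax6 to −0.85 ± 0.65 for Hnf4a (log2, SE). The median of the 6 differences was −0.53, against 0.01 over all probe sets tested, and all of them share the single parental array. Here 0 of 6 were called, with 0 at an unadjusted p under 0.05. limma called 0% of all probe sets in this comparison, and 3.67% had an unadjusted p under 0.05. All 4 clones lay below the parental array for 3 genes, Neurod1, Nkx6-1 and Hnf4a, while 19.7% of all probe sets did so. For Neurod1 the clones averaged 5470 ± 1850 against 8773 in the parental line.

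Taken clone by clone, 1-1 replicate 2 stood lowest. It was the lowest of the 5 arrays for 5 of the 6 tested genes, all but Nkx6-1, and for the second Hnf4a probe set as well. Over all probe sets tested, this clone was the lowest array for 17.9%. Its signal was below the parental array by 3.57-fold for Hnf4a, 3.14-fold for Neurod1, 2.21-fold for Isl1, 2.03-fold for Pax6 and 1.95-fold for Pdx1. At least 2-fold apart from the parental line on the log2(signal + 21.8) scale were 4 of 6 genes in this clone, against 7.63% of all probe sets. In 1-1 replicate 1 there were 2 of 6 (Nkx6-1 and Hnf4a, against 5.04%), in 5-3 replicate 1 there was 1 (Nkx6-1, against 8.92%), and in 5-3 replicate 2 there were 0 (against 5.16%). These counts come from single arrays, with no replicate check.

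Clones of the same set also differed from each other. Neurod1 read 2.48-fold lower in 1-1 replicate 2 than in 1-1 replicate 1, where 2.67% of all probe sets were at least 2-fold apart in either direction. In the same pair Isl1 was 1.73-fold, Pax6 1.70-fold and Pdx1 1.61-fold lower, and Nkx6-1 was 1.52-fold higher. In set 5-3, Nkx6-1 read 2.09-fold higher in replicate 2 than in replicate 1, where 6.59% of all probe sets were at least 2-fold apart. Isl1 was 1.49-fold lower in 5-3 replicate 2. Pax6, Neurod1 and the first Hnf4a probe set were within 1.12-fold between the 5-3 clones. The second Hnf4a probe set, too dim to be tested, was 1.82-fold lower in 5-3 replicate 2 than in 5-3 replicate 1. Between the 1-1 clones it was 3.67-fold lower in replicate 2.

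**Figure D3:**
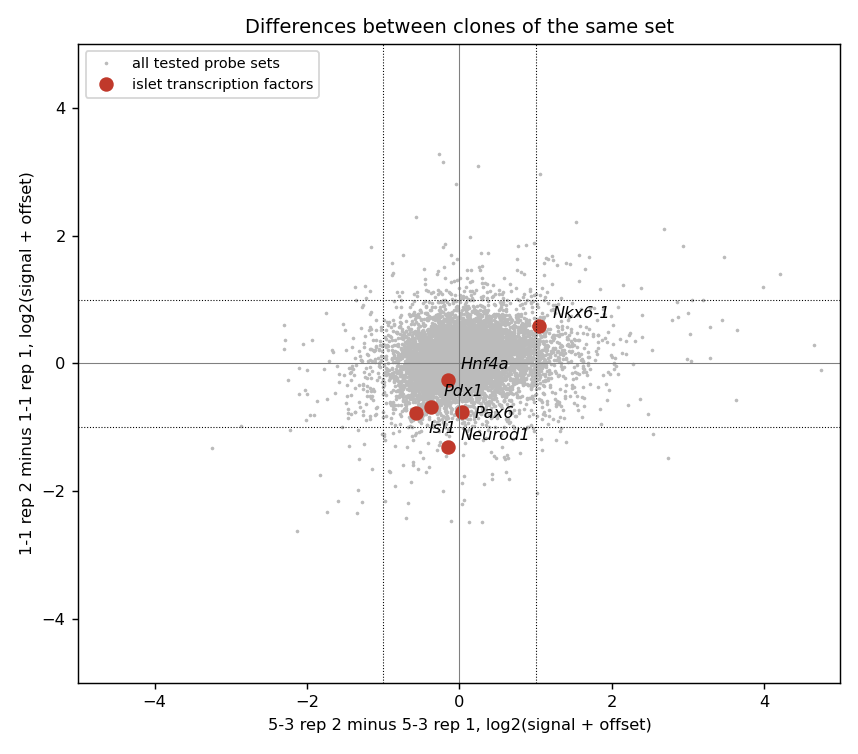
Difference between the clones of set 5-3 (x axis) and of set 1-1 (y axis) in log2(signal + offset), for all 9520 tested probe sets in grey and the 6 tested genes in red; dotted lines mark 2-fold. Neurod1 is the only gene of the 6 beyond the line for set 1-1 (−1.31), Nkx6-1 the only one beyond it for set 5-3 (1.05).

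The profiles over the 5 arrays can be set side by side after centring each gene on its own mean. By the root mean square difference of these centred log2 levels, the nearest pair among the 6 was Pdx1 and Isl1 (0.142), followed by Isl1 and Pax6 (0.198) and Pdx1 and Pax6 (0.201). Nkx6-1 was the most distant, at 0.611 to 0.720 from the others, and Hnf4a lay at 0.402 to 0.522 from the other 4. The same measure over all named tested probe sets gave Ank3 (0.0861) and Nrep (0.127) as nearest to Hnf4a, and Rab11b (0.0864) and Inpp4a (0.0866) as nearest to Pax6. For Isl1 they were Ifi27 (0.0726) and Gch1 (0.0845), for Neurod1 Nt5c2 (0.163) and Elp4 (0.164), and for Nkx6-1 Inpp5f (0.0897) and Pcmtd2 (0.102). Ank3 read 529.1 and 543.8 in set 5-3, 208.8 and 193.9 in set 1-1 and 587.7 in the parental line, with both 1-1 clones low, as for Hnf4a. Pdx1 spanned less than 2-fold (1.94) and was given no neighbours. These likenesses rest on 5 arrays and are given as a description.

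Partner and cofactor genes did not share one direction. Of 27 on the list, 23 had a probe set and 18 were tested. Between the sets 0 of the 18 were called, against 0.42% of all probe sets tested. At an unadjusted p under 0.05 (limma) stood 5, against 14.8% of all probe sets. In set 5-3, 9 were higher and 9 lower, and the median was 0.01, against −0.04 over all probe sets tested. Ldb1, the adaptor of LIM-homeodomain proteins such as Isl1, read 1024 and 1930.5 in the 5-3 clones, 925 and 1074 in the 1-1 clones and 2074 in parental cells. As for Nkx6-1, 5-3 replicate 2 and the parental line were the highest arrays. Its difference between the sets was 0.49 ± 0.33 (log2, SE; limma adjusted p = 0.560). The LIM-only gene Lmo4, whose protein competes for Ldb1, went the other way, with 939.3 and 627 in the 5-3 clones, 2322 and 3836 in the 1-1 clones and 971 in parental cells. The sets were far apart, by −1.93 ± 0.32 (log2, SE), but the difference did not pass (limma adjusted p = 0.0692, and 0.133 with dim probe sets kept). With a clone left out it was −2.29 to −1.57, smallest in size without 1-1 replicate 2. A dimmer Lmo4 probe set gave −0.87 (adjusted p = 0.290).

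Id proteins bind E proteins and so withhold them from factors such as Neurod1. Id2 read 4104 and 2888 in the 5-3 clones, 1988 and 1773 in the 1-1 clones and 1477 in parental cells by its brighter probe set. Its difference between the sets was 0.87 ± 0.25 (log2, SE, limma adjusted p = 0.191), and 0.62 to 1.12 with a clone left out. The dimmer Id2 probe set gave 1.33 (limma adjusted p = 0.0748). Id4 was lower in the 5-3 clones, with 1968 and 1738, against 3267 and 2660.1 in the 1-1 clones and 1138 in parental cells (difference −0.67, limma adjusted p = 0.229, and −0.40 by its dimmer probe set). Psmd9 is known as Bridge-1 and described as a coactivator of Pdx1 and E proteins. It read 1839 and 1372 in the 5-3 clones, 3482 and 3288 in the 1-1 clones and 2168 in parental cells. The difference was −1.08 (log2, limma adjusted p = 0.123), and −1.29 to −0.87 with a clone left out. Tcf3, which encodes the E proteins E12 and E47, was too dim to be tested, with 117 and 132.5 in the 5-3 clones, 136.5 and 55.2 in the 1-1 clones and 183 in parental cells.

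**Figure D4:**
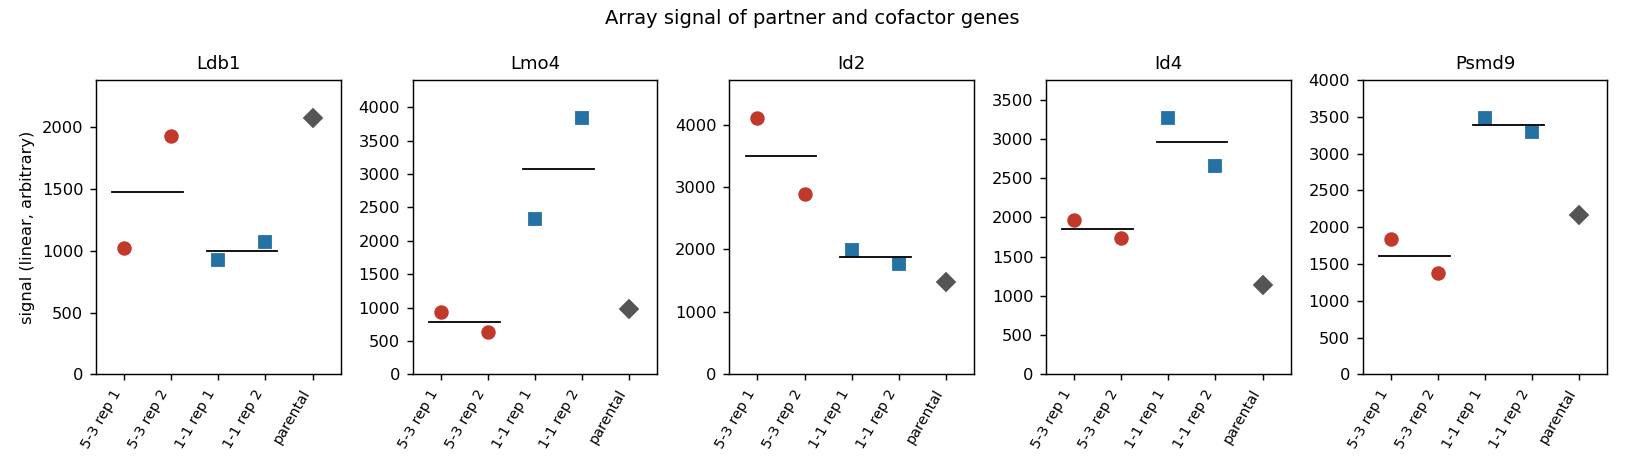
Linear signal of 5 partner and cofactor genes on the 5 arrays, drawn as for the islet factors, each by its brighter probe set. Lmo4 and Psmd9 are higher in both 1-1 clones (Lmo4 2322 and 3836) than in both 5-3 clones (Lmo4 939.3 and 627), and Id2 is higher in both 5-3 clones.

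Other pancreatic endocrine transcription factors went both ways. Of 29 on that list 16 had a probe set and 9 were tested. Between the sets 0 of the 9 were called, against 0.42% of all probe sets tested. At an unadjusted p under 0.05 (limma) stood 3, against 14.8% of all probe sets. In set 5-3, 3 were higher and 6 lower, and the median was −0.03, against −0.04 over all probe sets tested. Prox1, a homeodomain factor of the developing pancreas, read 1634.5 and 1741 in the 5-3 clones, 814 and 926.5 in the 1-1 clones and 1195 in parental cells (difference 0.94 ± 0.22, limma adjusted p = 0.134). The helix-loop-helix gene Bhlha15 read 196 and 107.5 in the 5-3 clones, 519 and 383.5 in the 1-1 clones and 369 in parental cells. The difference was −1.48 ± 0.35 (log2, SE, limma adjusted p = 0.141), and −1.86 to −1.11 with a clone left out. Nr4a1, an orphan nuclear receptor induced by stimulation, differed by −1.35, and St18, a zinc finger factor, by 1.02 between the sets, with adjusted p of 0.221 and 0.411. Both values depended on which 5-3 clone was left out. Nr4a1 was at −2.04 without 5-3 replicate 2 and at −0.66 without 5-3 replicate 1. St18 was at 1.84 without 5-3 replicate 1 and at 0.21 without 5-3 replicate 2. Neurog3 and Pax4, factors of endocrine progenitors, were below the brightness limit on the arrays.

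The hepatocyte nuclear factor network was tested through 10 of the 15 genes with a probe set, out of 20 listed. Between the sets 0 of the 10 were called, against 0.42% of all probe sets tested. At an unadjusted p under 0.05 (limma) stood 1, against 14.8% of all probe sets. In set 5-3, 6 were higher and 4 lower, and the median was 0.22, against −0.04 over all probe sets tested. Foxa2, a forkhead factor upstream of Pdx1, read 3328 and 2892 in the 5-3 clones, 3095 and 3385 in the 1-1 clones and 4459 in parental cells (difference −0.06 ± 0.20, limma adjusted p = 0.922). Onecut1, known as HNF6, was too dim to be tested. Cebpb, a leucine zipper factor, read 729.3 and 743.4 in the 5-3 clones, 1259 and 2200.4 in the 1-1 clones and 661 in parental cells (difference −1.15 ± 0.30, limma adjusted p = 0.167). The zinc finger gene Gata6, the nuclear receptor gene Nr2f1 and Onecut2 were higher in set 5-3 by 0.79, 0.66 and 0.63 on the log2 scale, with adjusted p of 0.356, 0.470 and 0.429. The dimmer probe sets gave −0.40 for Gata6, which is the other direction, and 0.07 for Onecut2.

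Beta cell and endocrine genes, several of them targets of Pdx1, Neurod1, Isl1, Pax6 or Nkx6-1, were compared next. Of 26 listed, 20 had a probe set and 19 were tested. Between the sets 1 rose in set 5-3 (Slc18a1), 2 fell (Nefl and Nefm) and 16 were not called, where 0.42% of all probe sets tested were called. At an unadjusted p under 0.05 (limma) stood 6 of the 19, against 14.8% of all probe sets. The median was 0.11, against −0.04 over all probe sets tested. On this list 6 of the tested genes, Slc18a1 and Nefl among them, had values already known when it was made; of the other 13, 0 rose and 1 fell (Nefm), with a median of 0.12. All 3 called genes read below the brightness limit of 194 in one set and were tested through the arrays where they are bright, so the sizes of their differences rest on signals not shown to be above background. Nefm, the medium neurofilament gene, read 70.9 and 89.8 in the 5-3 clones, 453.1 and 491 in the 1-1 clones and 569.6 in parental cells, a fitted difference of −2.28 on the log2 scale (limma adjusted p = 0.0363). The call was lost without 1-1 replicate 1 (adjusted p = 0.0550), without 1-1 replicate 2 (0.0888) and with dim probe sets kept (0.115). Nefl fell by 2.44 on the log2 scale (limma adjusted p = 0.0363, 0.0966 without 1-1 replicate 2 and 0.115 with dim probe sets kept; a second probe set was too dim to be tested), and Slc18a1, a vesicular monoamine transporter gene, rose by 4.15 (adjusted p = 0.00839, and 0.0376 with dim probe sets kept). Iapp, the islet amyloid gene, read 28102 and 19159.8 in the 5-3 clones, 33945 and 19870.5 in the 1-1 clones and 27899 in parental cells. Slc2a2, the glucose transporter gene on which Pdx1 acts, read 4153 and 10531 in the 5-3 clones, 5337.5 and 6485 in the 1-1 clones and 8926 in parental cells. The 5-3 clones lay at both ends of the range. Ins2 read 3953 and 4303 in the 5-3 clones, 30224 and 5381 in the 1-1 clones and 28816 in parental cells. For Ins2, 1-1 replicate 1 and the parental line stood apart from the other 3 arrays. Sytl4, a granule docking gene, differed by −2.01 between the sets (limma adjusted p = 0.272). It was at −3.25 without 5-3 replicate 2 and at −0.77 without 5-3 replicate 1. The Sytl4 signal in 5-3 replicate 1 was 116.5, below the brightness limit.

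Glucagon, the hormone of alpha cells and a gene on which Pax6 acts, was bright in these insulin-producing cells. Gcg read 20549.5 and 24434 in the 5-3 clones, 2064 and 17772 in the 1-1 clones and 6874.5 in parental cells. The 1-1 clones lay on both sides of the parental line, and the difference between the sets was 1.88 ± 0.86 (log2, SE; limma adjusted p = 0.382). It depended on which 1-1 clone was left out, at 3.43 without 1-1 replicate 2 and at 0.33 without 1-1 replicate 1. Of 8 alpha, delta, PP and epsilon cell markers with a probe set, 2 were bright enough to be tested, Gcg and the transthyretin gene Ttr. Summed over all 8 markers, the signals were 21094 and 24865 in set 5-3, 2549 and 18319 in set 1-1 and 7339 in the parental line, and Gcg made up most of each sum. The part of these cells' or genes' levels in the differences of the 6 factors was not tested. On arrays of whole cultures, fewer cells of a type and less RNA per cell cannot be told apart.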

How the data were processed

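Total RNA from 4 INS-1 clones and the parental INS-1 line was measured on 1 expression array each, and a sample was grouped by the clone name in its label. The deposited files hold 1 linear signal intensity per probe set, on a scale that the authors brought to a common mean, as the values show. The sources used here do not give the scanner software, background correction or summarisation, and neither detection calls nor probe-level data were used. Of 15923 probe sets, 57 controls were left out. The signal plus 21.8, the 10th percentile of positive signals, was taken to log2. Probe sets whose mean level reached the 40th percentile (a signal of about 194) were tested, 9520 in all. Models were fitted with limma 3.58.1 in R 4.3.3 (lmFit, eBayes with an intensity trend), and p-values were adjusted by Benjamini-Hochberg over all probe sets tested at a threshold of 0.05. The fit was tested on simulated data with known changes, but the outcome is not given here and nothing is read from it. Set 5-3, set 1-1 and the parental line formed 3 groups with 2 residual degrees of freedom, and the 4 clones against the parental array left 3. A gene with several probe sets was represented in lists by its brightest. Gene names come from the platform annotation, in which 12783 probe sets have 1 symbol, 312 several and 2771 none. Other scalings, offsets, filters and left-out clones were tried.

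A further gene list and a promoter motif are not reported here. The 6 genes and all gene lists were chosen with earlier results of these data known. From each list the text names the genes that pass in a comparison, otherwise up to 4 with the largest difference between the sets, and a fixed group of partners and targets. For each of the 6 genes that spans at least 2-fold it also names the 2 nearest profiles.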

Additional observations from a re-analysis of the deposited data

Results flagged for a closer look

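Among the 4 clones, 3 of 32 probe sets examined had a single clone far from the others, by the gap to its nearest neighbour as a share of the whole range. For Gcg this share was 0.871, with 1-1 replicate 1 lowest. For St18 it was 0.855, with 5-3 replicate 2 highest, and for Ins2 it was 0.849, with 1-1 replicate 1 highest. Chance gives some such cases at this limit.

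For 6 of the 32 probe sets examined, each of another gene, both 5-3 clones lay on one side of the parental array and both 1-1 clones on the other, while the difference between the sets did not pass in limma. Pax6, Prox1 and Nr2f1 were higher in set 5-3, by 0.74, 0.94 and 0.66 on the log2 scale. Lmo4, Bhlha15 and Psmd9 differed the other way, by −1.93, −1.48 and −1.08. Of all 9520 probe sets tested, 12.1% had the sets on opposite sides of the parental array, called or not. All of these genes but Pax6 were named because their difference between the sets was among the largest of their list, so nothing is read from the count.

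For 3 genes named in the report the difference between the sets passed in limma. Slc18a1 differed by 4.15 on the log2 scale and was higher in set 5-3. Nefl and Nefm differed by −2.44 and −2.28. Slc18a1 read below the brightness limit of 194 in set 1-1, and Nefl and Nefm did so in set 5-3. These genes were tested through the arrays where they are bright, and their low signals are not shown to be above background. With dim probe sets kept, Nefl and Nefm were no longer called (limma adjusted p = 0.115). The values of Slc18a1 and Nefl were already known when their list was made.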

How the results depend on the processing

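None of the 6 tested islet factors was called by limma in any comparison under any alternative run in which it was tested. The comparison of all clones with the parental line called 0 probe sets throughout. Hnf4a was too dim to be tested with the filter at the 60th percentile. In the other runs its difference between the sets stayed positive, at 1.08 to 1.5. Probe sets called between the sets numbered 40, against 70 after median centring, 64 with an offset 4 times larger, 10 without the filter and 12 with the filter at the 60th percentile. Leaving out a clone gave 47 to 329, with 225 without 5-3 replicate 1 and 329 without 5-3 replicate 2. Between set 5-3 and the parental line, 1 was called, against 5 after median centring, quantile normalization or cyclic loess, 4 with the larger offset, 0 without the filter or at the 60th percentile, and 14 to 189 with a clone left out. Between set 1-1 and the parental line, 1 was called, against 0 after median centring, without the filter or without the trend, and 5 to 96 with a clone left out. A lone clone in such fits is assumed to vary like the others. The median of the 6 factors between the sets, 0.59, was 0.34 to 1.11 with a clone left out. That of the hepatocyte nuclear factor network, 0.22, was −0.06 without the filter, −0.05 at the 60th percentile and 0.10 to 0.38 with a clone left out. Signs turned between the sets for Ins1 (0.02 after median centring, 0 after quantile normalization, −0.17 to 0.13 with a clone left out). With a clone left out they also turned for Nkx6-1 (−0.33 to 0.72), Neurod1 (−0.19 to 1.12), Iapp (−0.55 to 0.22), Foxa2 (−0.16 to 0.04), Ttr (−0.43 to 0.01), Krt7 (−0.14 to 0.44) and Slc2a2 (−0.50 to 0.84). Against the parental line they turned for set 5-3 in Isl1 (0.02 after median centring, −0.32 to 0.25 with a clone left out) and Pdx1 (−0.37 to 0.01). The cause was not tested. No paired analysis was possible because the replicate numbers only name clones. With 2 clones a set and 1 parental array, small differences cannot be resolved.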

Other observations

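Pcsk2 and Gipr were picked after their values were seen. Pcsk2, a prohormone convertase gene, read 7512 and 8705 in the 5-3 clones, 3331 and 1974 in the 1-1 clones and 9129.9 in parental cells. Its difference between the sets was 1.65 ± 0.28 (log2, SE; limma adjusted p = 0.0692). Gipr, the receptor gene of the gut hormone GIP, read 1793 and 1522 in the 5-3 clones, 962 and 817 in the 1-1 clones and 2000.1 in parental cells (difference 0.88, limma adjusted p = 0.164). For both genes the 1-1 clones were the lowest arrays, and neither difference passed the threshold.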
